A study of Mus musculus with 15 samples.

Results

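The respiratory chain genes of mouse gut innate lymphoid cells were examined as 2 sets, 93 genes in the nucleus and the 13 protein genes of mitochondrial DNA, 106 of the 22797 genes counted. Members were chosen by symbol. They were the protein-coding genes that begin with Ndufa, Ndufb, Ndufc, Ndufs, Ndufv, Uqcr, Cox4i, Cox5, Cox6, Cox7, Cox8 or Atp5, with Sdha to Sdhd, Cycs and the mitochondrial genes, and without Cox6a2 and pseudogenes. The symbol rule also brought in 8 Ndufaf genes, which help to assemble complex I and are no part of it. The other nuclear members were 36 of complex I, 4 of complex II, 8 of complex III, 19 of complex IV, 17 of complex V and cytochrome c. The mitochondrial genes were 7 of complex I, 1 of complex III, 3 of complex IV and 2 of complex V.

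PolyA RNA was sequenced from innate lymphoid cells of group 2 (ILC2) and group 3 (ILC3), sorted from the small intestine of female mice at zeitgeber times 4, 10, 16 and 23 (ZT, hours since the daily cue, usually lights on). Cells of 6 mice were pooled at each time. The 8 groups were ILC2 and ILC3 at each of the 4 times, with 2 libraries each, except ILC2 at ZT16 with 1 library. No group carried a treatment or an altered allele in its labels, and strain, age and sorting gates are not stated in the labels. The series' design text calls libraries of a group biological replicates, and whether they came from separate pools of mice is not given, so p-values measure the spread between these libraries. All ILC2 libraries were labelled batch 1 and all ILC3 libraries batch 2, so cell type and batch cannot be told apart.

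The respiratory chain passes electrons from NADH and succinate to oxygen across the inner mitochondrial membrane. Complex I (NADH dehydrogenase) and complex II (succinate dehydrogenase) feed ubiquinone, complex III passes electrons on to cytochrome c, and complex IV (cytochrome c oxidase) reduces oxygen. The proton gradient that complexes I, III and IV build drives complex V, the ATP synthase. Complexes I, III, IV and V each mix subunits from nuclear genes with subunits made inside the mitochondrion, whereas all of complex II is nuclear. ILC2 make type 2 cytokines and ILC3 make interleukin-22 at the gut barrier.

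Total counts ran from 4016298 to 24794403 per library. The cell type labels fitted their markers, since the summed level of 7 ILC2 genes was 1395 to 2821 CPM (counts scaled to 1e+06 per library) in ILC2 and 84.2 to 118 in ILC3, and that of 7 ILC3 genes 186 to 451 and 951 to 2478. Genes of other cells were also counted, and all genes of each list below had counts in both cell types. Summed over 8 plasma cell genes the level was 19776 to 196565 CPM in ILC2 and 757 to 4654 in ILC3, and over 4 mast cell genes it was 143 to 620 and 1447 to 3639. The 5 T cell genes summed to 313 to 591 CPM in ILC2 and 308 to 2409 in ILC3, and 8 macrophage and dendritic cell genes to 693 to 2286 and 1531 to 3856. The 3 erythroid genes summed to 13 to 61.8 CPM in ILC2 and 14.7 to 525 in ILC3, and 4 stromal and endothelial genes to 90.6 to 157 and 90.1 to 292. The 12 epithelial genes summed to 70.0 to 663 CPM in ILC2 and 137 to 1680 in 7 of the ILC3 libraries, but 4916 in ILC3 ZT23 replicate 2. That library also held the highest erythroid sum (525 CPM) and the highest plasma cell sum of ILC3 (4654 CPM, the others 757 to 2841). Its sum over 4 genes of ILC in general was 1397 CPM, the lowest of ILC3, where the others had 2197 to 3029. It stood apart in most values below, so the comparisons it moves are also given without it. The part these other cells have in any difference between ILC2 and ILC3 was not tested, and in bulk RNA fewer cells of a type cannot be told from less RNA per cell.

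The 13 mitochondrial genes took several times more counts than the 93 nuclear genes in every library. Their share of all counts in ILC2 was lowest at 4.61%, with a mean of 5.57% ± 0.777 (SD, n = 7) and a highest value of 6.54%. In ILC3 it ran from 3.92% to 11.1%, with a mean of 5.80% ± 2.35 (SD, n = 8), or 5.04% ± 1.04 (SD, n = 7) without ILC3 ZT23 replicate 2, the library at 11.1%. Nuclear members took 0.880% ± 0.103 (SD, n = 7) of counts in ILC2 and 1.05% ± 0.327 (SD, n = 8) in ILC3, or 0.940% ± 0.112 (SD, n = 7) without the same library, which had 1.82%. Both shares overlapped between the cell types. The single gene Jchain took 1.85% to 15.7% of counts in ILC2 and 0.0275% to 0.430% in ILC3. Without Jchain in the total, the mitochondrial mean was 6.02% ± 0.908 (SD, n = 7) in ILC2 and 5.81% ± 2.37 (SD, n = 8) in ILC3. The order of these means was thus reversed. The nuclear means were then 0.952% ± 0.132 and 1.05% ± 0.329, and both shares still overlapped. The exact binomial 95% intervals (Clopper-Pearson), which cover counting error only, reached at most 0.0206 percentage points to either side for the mitochondrial set and 0.00824 for the nuclear set, so depth did not limit these shares.

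**Figure D1:**
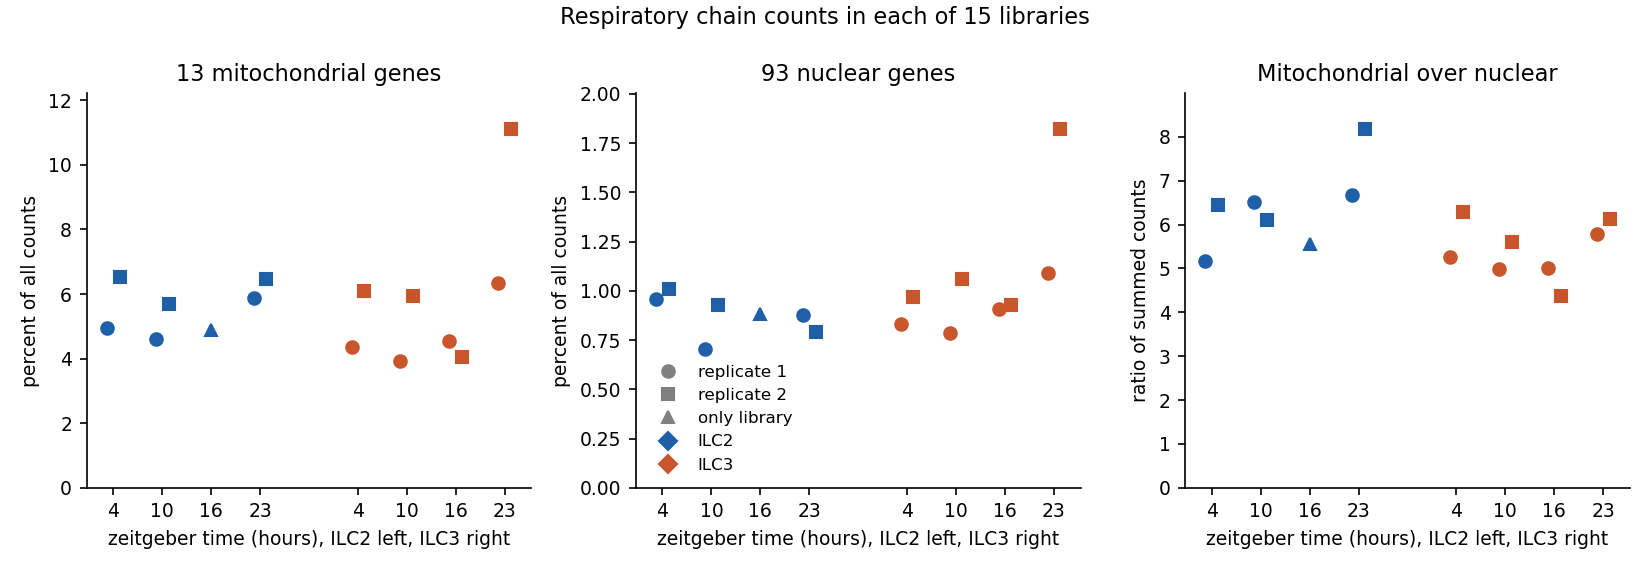
Share of all counts from the 13 mitochondrial genes and from the 93 nuclear genes (percent), and the ratio of their summed counts, for each of the 15 libraries by zeitgeber time, with ILC2 in blue and ILC3 in orange. ILC3 ZT23 replicate 2 lies above all others in both shares (11.1% and 1.82%), while its ratio of 6.12 lies among the others.

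The ratio of mitochondrial to nuclear counts compares the sets within a library, where depth cancels. In ILC2 it was 5.16 and 6.45 at ZT4, followed by 6.52 and 6.10 (ZT10), 5.55 (ZT16) and 6.68 and 8.17 (ZT23). In ILC3 it was 5.26 and 6.29 at ZT4, followed by 4.99 and 5.60 (ZT10), 5.01 and 4.37 (ZT16) and 5.79 and 6.12 (ZT23). The means were 6.38 ± 0.964 (SD, n = 7) in ILC2 and 5.43 ± 0.643 (SD, n = 8) in ILC3, and the ranges overlapped. On the log2 scale the ratio was 2.66 ± 0.21 (SD, n = 7) in ILC2 and 2.43 ± 0.17 (SD, n = 8) in ILC3, and 2.41 ± 0.17 (SD, n = 7) in ILC3 without ZT23 replicate 2. That library, with the highest share of both sets, had a log2 ratio of 2.61, inside the range of the other ILC3 libraries (2.13 to 2.65). The highest ratio was in ILC2 ZT23 replicate 2, where the nuclear share was 0.793% and the mitochondrial share 6.48%.

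Levels of different genes were compared as CPM per kilobase of the length that the files give for each gene. All 13 mitochondrial genes ranked above all nuclear members by their mean over the 15 libraries, from mt-Co1, the catalytic core of complex IV, at 12577 CPM per kilobase to mt-Nd6 at 998. Over the 13 genes the median per library was 3550 ± 659 CPM per kilobase (SD, n = 7) in ILC2 and 3450 ± 1494 (SD, n = 8) in ILC3. Over the 85 nuclear subunit genes it was 84.9 ± 21.9 (SD, n = 7) and 91.5 ± 27.4 (SD, n = 8). The ILC3 values were 2964 ± 631 and 82.6 ± 11.3 CPM per kilobase (SD, n = 7) without ILC3 ZT23 replicate 2. The median mitochondrial gene was thus 43.6-fold ± 10.9 (SD, n = 7) above the median nuclear subunit gene in ILC2 and 36.8-fold ± 4.92 (SD, n = 8) in ILC3, with overlap between the cell types (34.0 to 65.0 and 28.9 to 44.4).

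Among nuclear members Atp5b, the catalytic beta subunit of ATP synthase, had the highest mean, at 574 CPM per kilobase. It was followed by Cox4i1, the common form of subunit IV of cytochrome oxidase, at 544, and Atp5a1, the alpha subunit of ATP synthase, at 458. The means of these 3 genes differed by less than the SD of Cox4i1 between libraries, 144 in ILC2 and 186 in ILC3. Median levels of the nuclear subunits of complex V were 156 ± 27.6 CPM per kilobase (SD, n = 7) in ILC2 and 159 ± 48.3 (SD, n = 8) in ILC3, and those of complex III 125 ± 21.0 and 135 ± 63.3. Complex II had 106 ± 14.5 and 103 ± 29.9, complex IV 88.9 ± 26.3 and 131 ± 65.1, and complex I 70.7 ± 16.7 and 73.2 ± 22.6. The complex IV median was taken over 19 genes, among them Cox7b2, Cox8b and Cox8c with 0 counts in all libraries. Cox4i2, Ndufa4l2, Cox6b2 and Cox7a1 were the next lowest of its nuclear genes. Complex III likewise included Uqcr11 with 0 counts. Such genes lower a median, and the order of the complexes without them was not tested. The median over the 85 nuclear subunit genes includes them too. Within each complex ILC2 and ILC3 overlapped. Leaving out ILC3 ZT23 replicate 2 gave ILC3 values (SD, n = 7) of 144 ± 21.0 CPM per kilobase for complex V, 113 ± 15.2 for III, 93.2 ± 12.3 for II, 110 ± 32.1 for IV and 66.1 ± 11.2 for I. The complex I assembly factors were lower, at 7.61 ± 2.24 and 9.27 ± 2.19 CPM per kilobase. Cycs, the gene of cytochrome c, had 18.2 ± 3.55 (SD, n = 7) and 21.6 ± 7.94 (SD, n = 8).

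Mitochondrial DNA is transcribed as long precursors from both strands that are cut into single messages. For 12 of the 13 genes the message comes from the same strand, and for mt-Nd6 from the other. Their relative makeup was much alike in the 2 cell types. The largest part came from mt-Co1, with 35.6% ± 1.63 of the 13 genes' counts in ILC2 (SD, n = 7) and 33.3% ± 1.99 in ILC3 (SD, n = 8). Next was mt-Co3, also of complex IV, at 11.8% ± 1.82 and 12.4% ± 1.47. The share of mt-Co2, the complex IV subunit that receives electrons from cytochrome c, was 8.11% ± 0.500 in ILC2 (7.31% to 8.69%) and 9.32% ± 0.465 in ILC3 (8.89% to 10.2%). For mt-Co2 the ranges of ILC2 and ILC3 did not overlap, and for the other 12 genes they did, though mt-Nd4l met only at 1.14%. These shares are within-library ratios and show unequal change among the genes, not which gene changed.

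**Figure D2:**
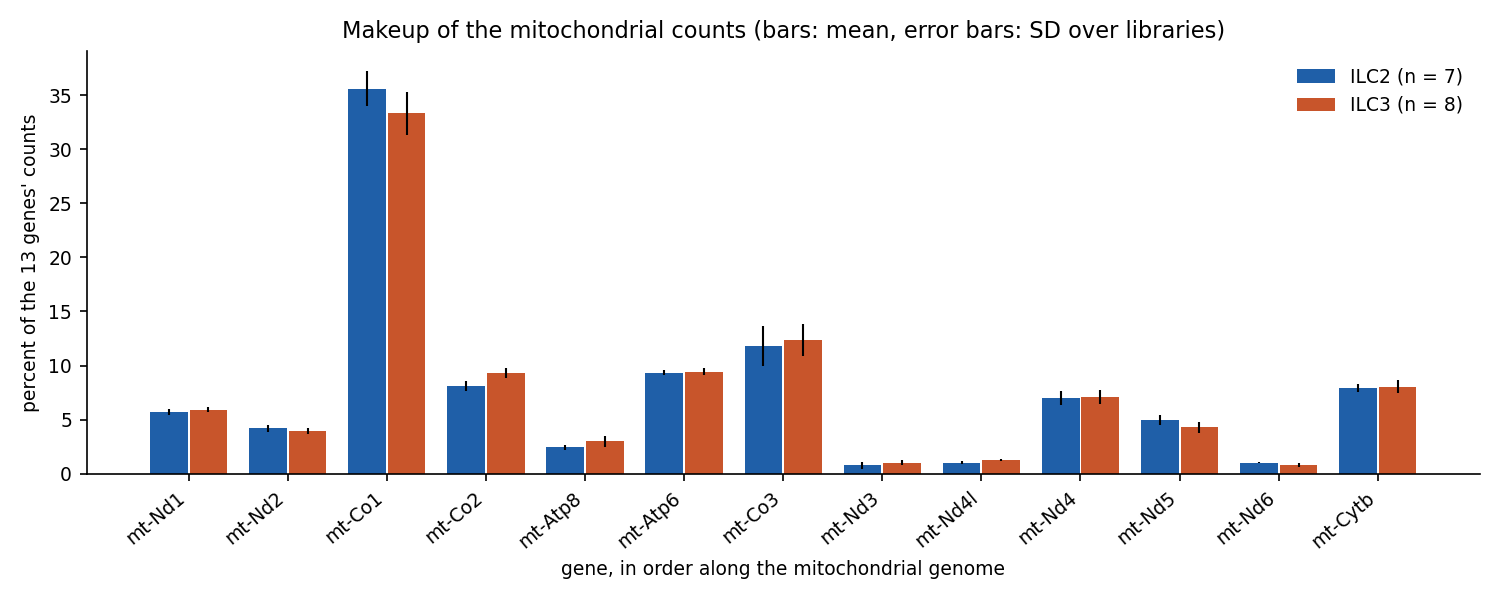
Percent of the counts of the 13 mitochondrial protein genes that fell on each gene, in order along the mitochondrial genome, as the mean with SD over 7 ILC2 (blue) and 8 ILC3 (orange) libraries. Of the 13 genes mt-Co1 takes the largest share in both cell types (35.6% and 33.3%), and the share of mt-Co2 is higher in ILC3 (9.32%) than in ILC2 (8.11%).

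Some mitochondrial genes overlap, so their counts are not independent. Genes mt-Atp8 and mt-Atp6, which encode the A6L and a subunits of ATP synthase, share 43 bases of the same strand at chrM:7927-7969 (mm10), shown here because reads inside them belong to either gene. The sequence, from the GENCODE transcripts of both genes, has the start codon of mt-Atp6 in capitals.
mt-Atp8 and mt-Atp6: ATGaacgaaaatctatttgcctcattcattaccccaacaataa
Likewise mt-Nd4l and mt-Nd4 share 7 bases, and mt-Nd5 shares 14 with mt-Nd6, the single protein gene on the other strand. The strand setting of the count is not given in the sources used here, and reads of mt-Nd6 cannot be told from reads of the opposite strand.

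The first comparison was ILC3 against ILC2 over all times. In edgeR's quasi-likelihood test, with Benjamini-Hochberg adjustment over all 15339 genes tested and a threshold of 0.05, 6 of the 102 members tested passed (5.88%), 5 higher and 1 lower in ILC3. Over all genes 27.1% passed, 15.1% higher and 12% lower in ILC3. At an unadjusted p under 0.05 there were 16 members (15.7%), against 38.3% of all genes. The median log2 fold change was 0.06 over members (0.10 nuclear, -0.10 mitochondrial) and 0.11 over all genes. In size the median change, regardless of sign, was 0.19 for members and 0.48 for all genes, with a median SE of 0.19 and 0.24. The 4 members not tested, Uqcr11, Cox7b2, Cox8b and Cox8c, had 0 counts in all 15 libraries, which allows up to 0.0129 CPM (3 counts over the 15 libraries together) and covers counting error only. Cox7b2, Cox8b and Cox8c are forms restricted to other tissues, but Uqcr11 is a widely expressed complex III subunit, and how its reads were assigned was not tested.

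**Figure D3:**
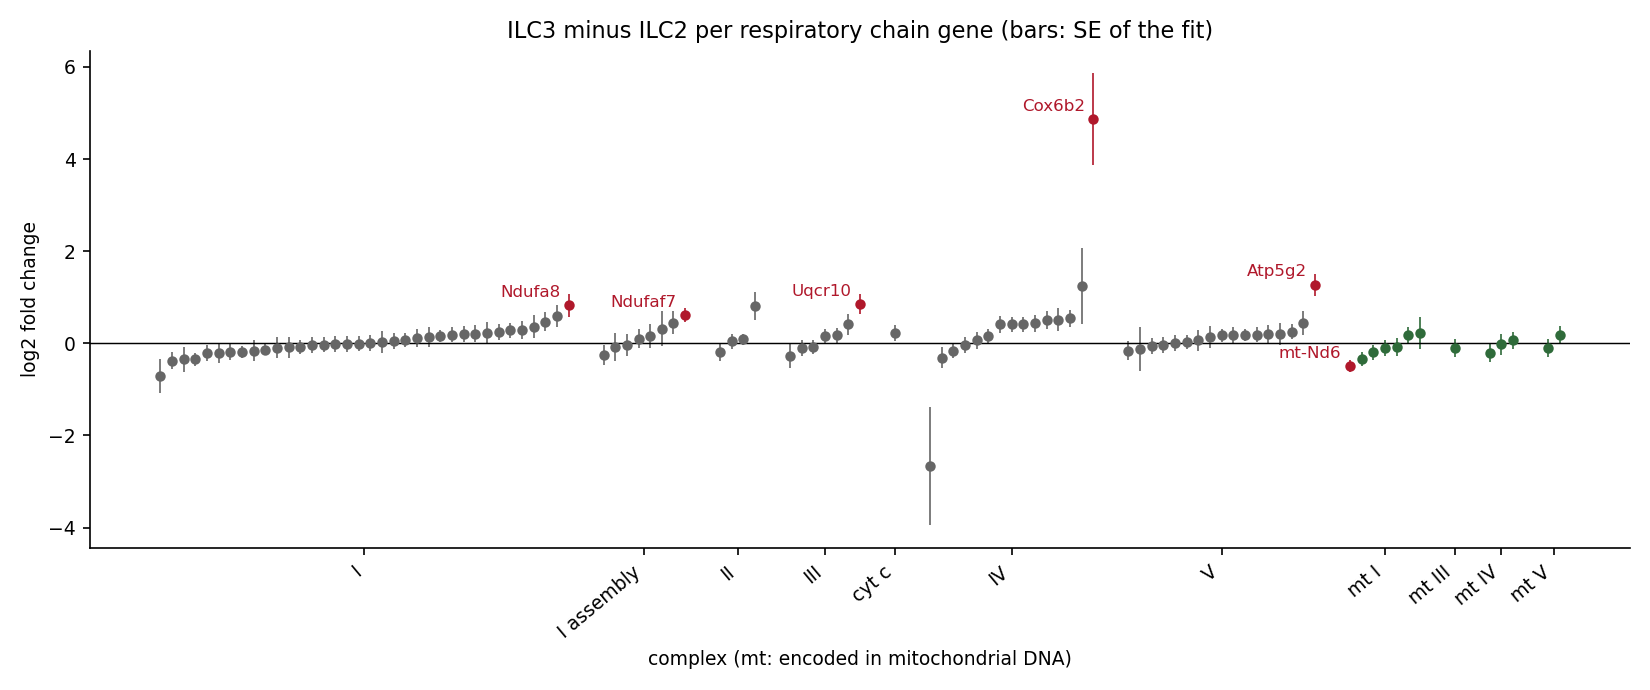
Log2 fold change of ILC3 minus ILC2 with its SE for 101 members tested, ordered by size within each complex, with nuclear genes in grey, mitochondrial genes in green and the 6 that passed in red. Most lie within 1 of 0, and Cox4i2 is left out because its 25 counts give no usable error.

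Complex I holds the most members, and 1 of its 36 nuclear subunits passed. Ndufa8, a subunit of the intermembrane space side, rose in ILC3 by 0.83 ± 0.25 on the log2 scale (SE, adjusted p = 0.0261 in edgeR). Its level in ILC2 was 19.4 and 11.4 CPM at ZT4, followed by 10.7 and 14.8 (ZT10), 9.22 (ZT16) and 17.5 and 9.45 (ZT23). In ILC3 it was 18.8 and 17.4 CPM at ZT4, followed by 13.8 and 24.5 (ZT10), 19.2 and 20.7 (ZT16) and 22.4 and 48.5 (ZT23). The highest value was that of ILC3 ZT23 replicate 2, and the groups overlapped between 13.8 and 19.4 CPM. The call was lost without that library, and also without any 1 of ILC2 ZT10 replicate 1, ILC2 ZT16, ILC3 ZT10 replicate 2 or either ILC3 ZT16 library. Over all settings the log2 fold change of Ndufa8 ran from 0.42 to 0.99. Over the nuclear complex I subunits 18 of 36 were above 0 and 18 below, with a median log2 fold change of 0.00, or -0.08 without ILC3 ZT23 replicate 2.

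The complex I subunits nearest to the threshold lay on both sides of 0. Ndufab1, the mitochondrial acyl carrier protein, was at 16.2 ± 3.28 CPM (SD, n = 7) in ILC2 and 26.6 ± 16.5 (SD, n = 8) in ILC3, with a log2 fold change of 0.59 ± 0.23 (adjusted p = 0.0785 in edgeR). Without ILC3 ZT23 replicate 2, which had 66.9 CPM, the ILC3 mean of Ndufab1 was 20.9 ± 2.76 (SD, n = 7) and the log2 fold change 0.36 ± 0.18 (adjusted p = 0.179 in edgeR). Ndufv3, an accessory subunit of the NADH-binding module, was at 60.6 ± 11.9 and 48.5 ± 13.5 CPM, with -0.35 ± 0.14 (adjusted p = 0.0909 in edgeR). Ndufb8, Ndufb10 and Ndufb11, membrane arm subunits with the highest levels among the nuclear subunits of complex I, averaged 157, 148 and 146 CPM per kilobase, and none of the 3 passed.

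Of the complex I genes in mitochondrial DNA, mt-Nd6 was lower in ILC3, by -0.50 ± 0.13 on the log2 scale (SE, adjusted p = 0.0112 in edgeR). In ILC2 it had 544 and 699 CPM at ZT4, followed by 492 and 619 (ZT10), 533 (ZT16) and 760 and 655 (ZT23). In ILC3 it had 530 and 511 CPM at ZT4, followed by 351 and 446 (ZT10), 328 and 305 (ZT16) and 472 and 523 (ZT23). The lowest ILC3 libraries were those of ZT16, and the groups overlapped between 492 and 530 CPM. Its share of the 13 genes' counts was 0.989% to 1.08% in ILC2 and 0.496% to 1.11% in ILC3. Scaled by library size alone, the change was smaller and did not pass, and all 14 members that passed there were nuclear and higher in ILC3, against 5 higher and 1 lower here. With that scaling 28% of all genes passed, and the median over all genes moved from 0.11 to 0.26. The opposite-strand neighbour mt-Nd5 had a log2 fold change of -0.34 ± 0.15 (adjusted p = 0.116 in edgeR), and mt-Co1 one of -0.21 ± 0.19 (adjusted p = 0.449), and neither passed. The 13 genes ran from -0.50 to 0.22, and 4 were above 0. Among these 4 was mt-Co2, at 0.06 ± 0.19 (adjusted p = 0.863 in edgeR), whose CPM overlapped between the cell types.

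In complex II, where all 4 subunits are nuclear, 0 passed in edgeR and 1 had an unadjusted p under 0.05. That was Sdhd, the small membrane anchor, with a log2 fold change of 0.81 ± 0.31 (adjusted p = 0.0751 in edgeR). In ILC2 it had 6.80 and 6.98 CPM at ZT4, followed by 5.47 and 3.57 (ZT10), 4.69 (ZT16) and 6.16 and 4.48 (ZT23). In ILC3 it had 2.60 and 6.52 CPM at ZT4, followed by 5.49 and 10.6 (ZT10), 7.84 and 9.25 (ZT16) and 13.1 and 32.1 (ZT23). The lowest value of all 15 libraries and the highest were both in ILC3. By DESeq2 the call was made, and over all settings the log2 fold change ran from 0.14 to 0.97. Sdha, the flavoprotein that oxidises succinate, had 335 ± 30 CPM (SD, n = 7) in ILC2 and 353 ± 42.8 (SD, n = 8) in ILC3, and Sdhb, the iron-sulphur subunit, 129 ± 25.7 and 117 ± 51.9. The ILC3 mean of Sdhb was 99.2 ± 10.8 CPM (SD, n = 7) without ILC3 ZT23 replicate 2, and that of Sdhd 7.91 ± 3.45 with a log2 fold change of 0.62 ± 0.31 (adjusted p = 0.179 in edgeR).

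Complex III had 1 of 7 nuclear subunits tested past the threshold. Uqcr10, a very small subunit, rose in ILC3 by 0.85 ± 0.21 on the log2 scale (SE, adjusted p = 0.0101 in edgeR). In ILC2 it had 28.6 and 38.6 CPM at ZT4, followed by 21.4 and 35.7 (ZT10), 36.7 (ZT16) and 34.0 and 17.7 (ZT23). In ILC3 it had 52.6 and 46.9 CPM at ZT4, followed by 36.7 and 45.0 (ZT10), 44.5 and 46.3 (ZT16) and 68.1 and 140 (ZT23). All ILC3 libraries but the lowest lay above all ILC2 libraries, and the call held without each library in turn. Uqcrc1, a core protein, had 248 ± 22.0 CPM (SD, n = 7) in ILC2 and 284 ± 110 (SD, n = 8) in ILC3, and Uqcrh, the hinge protein, 160 ± 38.1 and 153 ± 53.9. Cytochrome c, the carrier between complexes III and IV, had 55.5 ± 10.8 CPM in ILC2 and 66.0 ± 24.3 in ILC3 from Cycs, with a log2 fold change of 0.22 ± 0.18 (adjusted p = 0.396 in edgeR). When ILC3 ZT23 replicate 2 was left out, the ILC3 means (SD, n = 7) were 48.6 ± 9.81 CPM for Uqcr10, 246 ± 27.9 for Uqcrc1, 137 ± 30.2 for Uqcrh and 57.9 ± 8.83 for Cycs. The log2 fold change of Uqcr10 was then 0.69 ± 0.19 (adjusted p = 0.0183 in edgeR).

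Complex IV had 6 of its 16 nuclear members tested at an unadjusted p under 0.05 (37.5%, against 38.3% of all genes) and 1 past the adjusted threshold, with a median log2 fold change of 0.41. These were 3 members, 1 and 0.28 without ILC3 ZT23 replicate 2. The passing gene was Cox6b2, the testis form of subunit VIb, at very low level. ILC2 had 22 counts of Cox6b2 in all, with 0 CPM in 5 libraries, 0.244 in ZT4 replicate 2 and 1.46 at ZT16. ILC3 had 300 counts, with 1.12 and 2.09 CPM at ZT4, followed by 0.716 and 4.16 (ZT10), 1.44 and 1.87 (ZT16) and 0.751 and 2.31 (ZT23). Every ILC3 library lay above 6 of the 7 ILC2 libraries, and the ILC2 ZT16 library overlapped them. The fitted log2 fold change of 4.87 ± 0.99 (SE, adjusted p = 0.00449 in edgeR) leans on the libraries at 0, and the mean levels were 0.243 ± 0.544 CPM (SD, n = 7) and 1.81 ± 1.12 (SD, n = 8). The ubiquitous form Cox6b1 carried 99.8% ± 0.395 of the level per kilobase of the pair in ILC2 and 98.5% ± 0.879 in ILC3, at 95 ± 24.1 and 104 ± 39.0 CPM.

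Several widely expressed complex IV subunits lay just outside the threshold, with higher means in ILC3. For Cox6c the level was 86.6 ± 23.8 CPM (SD, n = 7) in ILC2 and 131 ± 35.5 (SD, n = 8) in ILC3, with a log2 fold change of 0.54 ± 0.19 (adjusted p = 0.0556 in edgeR). For Cox7a2 it was 16.6 ± 1.77 and 24.8 ± 12.1 CPM, with 0.50 ± 0.20 (adjusted p = 0.0789). For Cox8a it was 191 ± 34.6 and 259 ± 66.7 CPM, with 0.41 ± 0.16 (adjusted p = 0.0790). The gene of Cox7a2 overlaps that of Tmem30a in the annotation, so its reads may be shared. In DESeq2 Cox6c and Cox8a passed and Cox7a2 did not. Their ILC3 means without ILC3 ZT23 replicate 2 (SD, n = 7) were 120 ± 20.6 CPM for Cox6c, 20.9 ± 5.56 for Cox7a2 and 238 ± 30.7 for Cox8a. The log2 fold changes were then 0.49, 0.39 and 0.34. Of the 16 nuclear complex IV members tested, 10 were above 0 without that library. Among those below 0 were Ndufa4 (-0.46), Cox7a2l (-0.20) and Cox4i1 (-0.16).

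In the other paired forms of complex IV subunits the ubiquitous type also gave most of the level. Cox4i2, the lung form induced by low oxygen, had 18 counts in ILC2 and 7 in ILC3, and Cox4i1 carried 99.9% or more of the pair's mean level per kilobase in both. Ndufa4l2, also known to be induced by low oxygen, had 27 counts in all. Cox7a1, the heart and muscle form, had 55 counts in ILC2 and 252 in ILC3, or 5.85% ± 4.66 (SD, n = 7) and 10.1% ± 6.01 (SD, n = 8) of the level per kilobase of Cox7a1 and Cox7a2 together. That share ran from 0% to 11.4% over ILC2 libraries and from 3.14% to 17.9% over ILC3 libraries. The log2 fold change of Cox7a1 was 1.24 ± 0.83 (adjusted p = 0.300 in edgeR), and its libraries overlapped.

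Complex V had 1 of its 17 nuclear members past the threshold, Atp5g2, and it was the most clearly separated of all members. Atp5g1, Atp5g2 and Atp5g3 are 3 genes for the same mature c subunit, which forms the rotor ring of ATP synthase, and their products differ in the import signal that is cut off. In ILC2 Atp5g2 had 5.44 and 3.90 CPM at ZT4, followed by 3.48 and 5.82 (ZT10), 5.0 (ZT16) and 4.83 and 4.20 (ZT23). In ILC3 it had 11.7 and 9.0 CPM at ZT4, followed by 9.19 and 13.6 (ZT10), 10.7 and 11 (ZT16) and 11 and 15.1 (ZT23). The groups did not overlap. This held for 1 of 102 members and for 12.1% of all genes tested, 6.51% higher in ILC3 and 5.57% higher in ILC2. The log2 fold change was 1.27 ± 0.24 (SE, 2.40-fold, adjusted p = 0.00217 in edgeR).

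The other c subunit genes did not pass. Atp5g1 had 16.3 ± 3.79 CPM (SD, n = 7) in ILC2 and 25 ± 19.9 (SD, n = 8) in ILC3, with a highest value of 73.9 in ILC3 ZT23 replicate 2 against 22.0 or less elsewhere, and a log2 fold change of 0.44 ± 0.25 (adjusted p = 0.224 in edgeR). Atp5g3 had 228 ± 48.1 and 266 ± 126 CPM, with 0.17 ± 0.19 (adjusted p = 0.548). Leaving out that library gave ILC3 means of 18.1 ± 2.92 CPM for Atp5g1 and 224 ± 41.9 for Atp5g3 (SD, n = 7), and log2 fold changes of 0.16 and 0.02. Per kilobase, Atp5g3 gave 92.7% ± 0.998 of the level of the 3 genes in ILC2 and 89.5% ± 0.891 in ILC3. Atp5g2 gave 2.04% ± 0.406 (1.27% to 2.46%) and 4.37% ± 0.990 (2.49% to 5.34%), and Atp5g1 5.22% ± 0.929 and 6.13% ± 1.35. The gene that differed most between the cell types was thus a minor source of c subunit message in both.

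Among the 8 complex I assembly factors brought in by their symbols, Ndufaf7, a methyltransferase needed for assembly of the complex, rose in ILC3 by 0.61 ± 0.15 on the log2 scale (SE, adjusted p = 0.0105 in edgeR). In ILC2 it had 19.0 and 18.7 CPM at ZT4, followed by 13.7 and 16.3 (ZT10), 12.8 (ZT16) and 14.0 and 14.0 (ZT23). In ILC3 it had 19.9 and 21.2 CPM at ZT4, followed by 18.0 and 25.3 (ZT10), 21.8 and 24.7 (ZT16) and 23.9 and 28.8 (ZT23). The lowest ILC3 library, at 18.0 CPM, lay below the highest ILC2 libraries, and the others lay above all of ILC2.

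**Figure D4:**
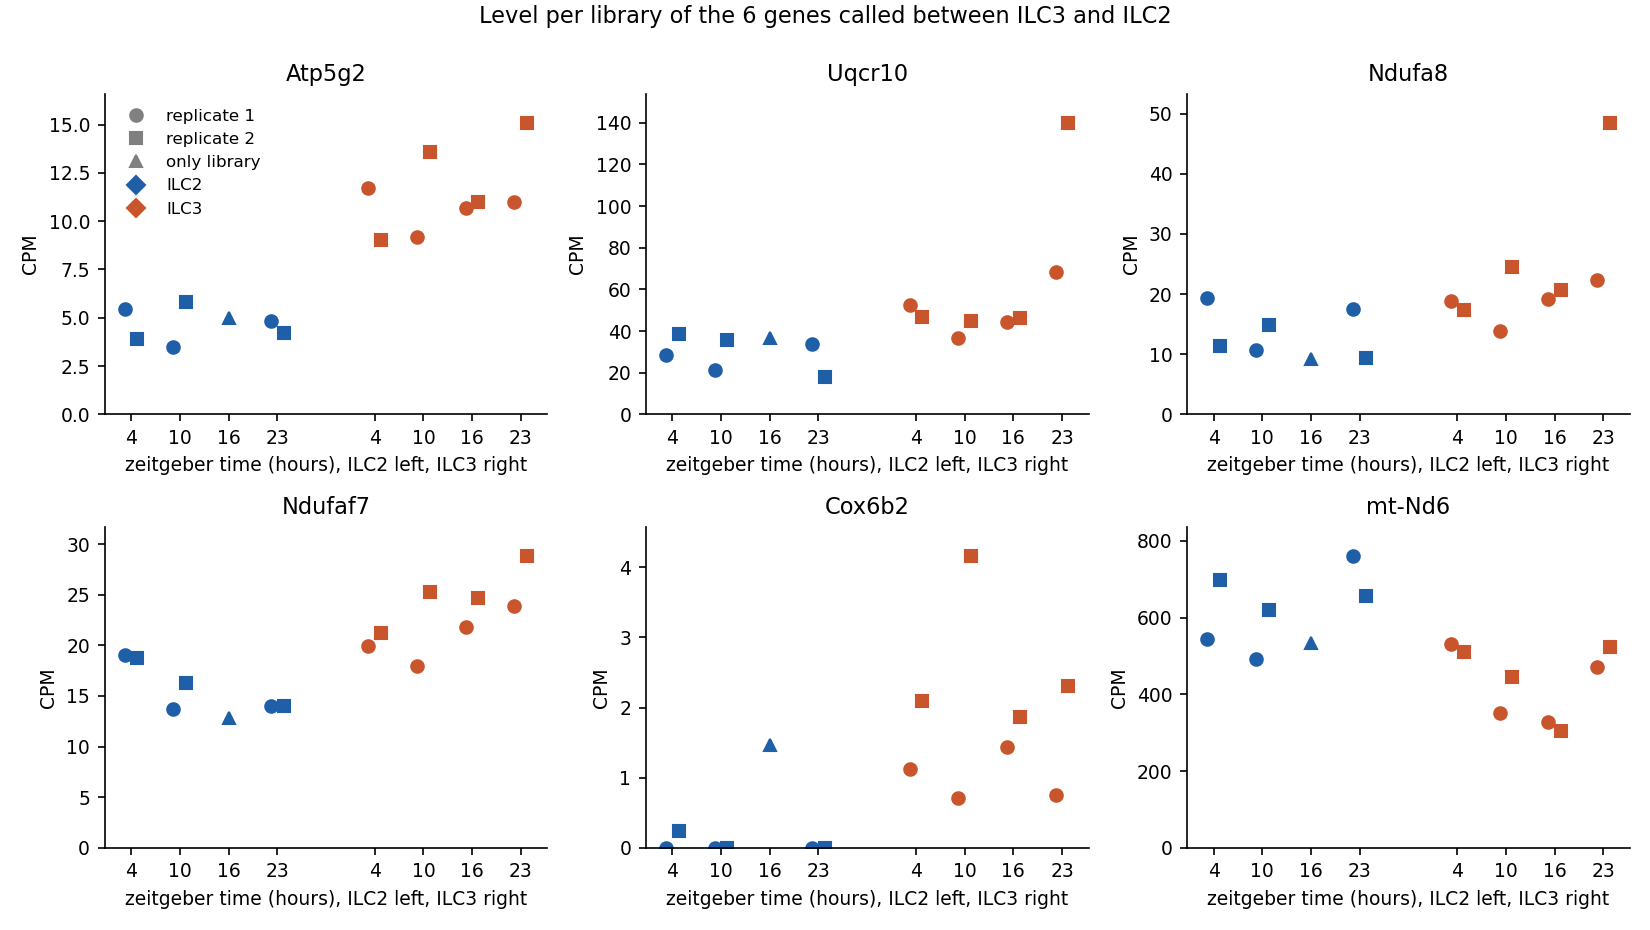
CPM in each of the 15 libraries for the 6 members that passed between ILC3 (orange) and ILC2 (blue), by zeitgeber time. Atp5g2 separates the cell types in all libraries (3.48 to 5.82 against 9.0 to 15.1), the others overlap, and ILC3 ZT23 replicate 2 is the highest library for Uqcr10 (140) and Ndufa8 (48.5).

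Without ILC3 ZT23 replicate 2 the median log2 fold change was -0.03 over members and 0.08 over all genes. Atp5g2 and Cox6b2 passed in all 21 other settings, among them each library left out.

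The promoters of nuclear members were searched on both strands for 4 short motifs of factors known to act on respiratory genes. The RefSeq sequences (GRCm38.p6) ran from 250 bases before to 50 after the start that each promoter entry gives. Of the 93 genes 77 had an entry. The NRF1 motif, GCGCA and GCGC with any base between them, was in 24.7% of them, against 7.7% of the 16110 protein-coding genes of the files with an entry, and the ETS and GABP motif CCGGAAG in 24.7% against 13.7%. The YY1 motif AAGATGGC was in 14.3% against 3.7%. The ERR motif TCAAGGTCA was in 2.6%, only 2 of the 77 genes, against 0.3%. None of the 4 motifs contains another, and a promoter could hold several. At least 1 of the 4 was in 54.5% of members, 22.5% of the protein-coding genes and 16.8% of all 27025 genes of the table. A match is a description of the letters, not of binding.

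The 250 bases before the start of the entry are shown for the 3 c subunit genes, of which only Atp5g2 passed, and for Ndufa8, Uqcr10 and Sdhd. Motif matches are in capitals. For Atp5g1 and Atp5g3 that start lies inside the annotated gene (chr11:96072793-96075694 and chr2:73908447-73912464). Part of the Atp5g1 stretch and all of the Atp5g3 stretch thus lie within the gene.
Atp5g1, chr11:96075632-96075881, minus strand: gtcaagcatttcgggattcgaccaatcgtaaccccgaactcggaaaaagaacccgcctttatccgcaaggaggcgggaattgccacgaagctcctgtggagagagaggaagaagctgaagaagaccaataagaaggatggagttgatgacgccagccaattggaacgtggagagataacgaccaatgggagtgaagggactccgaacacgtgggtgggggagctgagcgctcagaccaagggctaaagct
Atp5g2, chr15:102671048-102671297, minus strand: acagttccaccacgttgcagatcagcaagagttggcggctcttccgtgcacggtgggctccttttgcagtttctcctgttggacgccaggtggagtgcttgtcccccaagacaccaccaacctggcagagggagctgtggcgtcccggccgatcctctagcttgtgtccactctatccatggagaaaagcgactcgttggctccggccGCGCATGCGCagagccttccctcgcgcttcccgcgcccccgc
Atp5g3, chr2:73911327-73911576, minus strand: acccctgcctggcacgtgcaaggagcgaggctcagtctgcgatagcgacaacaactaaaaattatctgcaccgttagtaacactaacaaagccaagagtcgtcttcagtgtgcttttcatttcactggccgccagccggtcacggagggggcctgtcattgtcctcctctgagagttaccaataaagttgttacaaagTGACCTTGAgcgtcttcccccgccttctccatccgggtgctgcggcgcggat
Ndufa8, chr2:36049339-36049588, minus strand: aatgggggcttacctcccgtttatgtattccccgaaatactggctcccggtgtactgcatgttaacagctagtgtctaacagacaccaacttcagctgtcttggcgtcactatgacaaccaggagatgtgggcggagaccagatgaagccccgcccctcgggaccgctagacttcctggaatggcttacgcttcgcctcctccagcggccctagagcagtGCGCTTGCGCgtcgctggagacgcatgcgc
Uqcr10, chr11:4704345-4704594, minus strand: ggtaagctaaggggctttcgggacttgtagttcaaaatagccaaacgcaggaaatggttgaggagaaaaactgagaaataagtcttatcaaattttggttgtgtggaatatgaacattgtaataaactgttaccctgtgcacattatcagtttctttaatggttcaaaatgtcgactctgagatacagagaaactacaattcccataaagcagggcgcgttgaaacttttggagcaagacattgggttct
Sdhd, chr9:50603850-50604099, minus strand: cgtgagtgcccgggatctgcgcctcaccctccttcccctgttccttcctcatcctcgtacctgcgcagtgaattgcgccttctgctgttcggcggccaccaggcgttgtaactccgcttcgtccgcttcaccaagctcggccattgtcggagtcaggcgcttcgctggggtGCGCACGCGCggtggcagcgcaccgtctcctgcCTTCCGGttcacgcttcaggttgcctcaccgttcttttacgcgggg
Atp5g2 and Ndufa8 each hold 1 NRF1 match, whose first base lies at -42 and -30 relative to the start. Atp5g3 holds an ERR match before the start and an NRF1 match after it, and Sdhd holds NRF1 and ETS matches before it and an ERR match after it. No match was found for Atp5g1 or Uqcr10, nor in the windows of Cox6b2 and Ndufaf7. So the genes that passed between the cell types included some with and some without a match. GC content of these 250 bases ran from 38.8% for Uqcr10 to 64.4% for Sdhd.

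The second question was whether members changed over the day. By edgeR 0 of 102 members passed over the 4 times in ILC2 or in ILC3, in the interaction of time and cell type, or between ZT16 and ZT4 or ZT23 and ZT10 in either cell type, and of all genes 0% passed. At an unadjusted p under 0.05 the times test gave 1 member in ILC2 (0.980%, all genes 3.36%), 30 in ILC3 (29.4%, all genes 4.36%) and 5 in the interaction (4.90%, all genes 2.00%). Without ILC3 ZT23 replicate 2 the ILC3 count was 0 (all genes 1.77%), and without replicate 1 it was 56 (all genes 10.2%). By DESeq2 mt-Atp8 and mt-Co1 were 2 of 31 genes that passed over the times in ILC3, and mt-Atp8 was 1 of 24 between ZT23 and ZT10.

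Between ZT23 and ZT10 in ILC3, 40 members had an unadjusted p under 0.05 (39.2%, all genes 8.17%), 101 of 102 had a positive log2 fold change, the median was 0.71, and the smallest adjusted p was 0.597 in edgeR. The median was 0.70 for nuclear members and 0.86 for mitochondrial ones. Levels of Uqcr10 were 36.7 and 45.0 CPM at ZT10 against 68.1 and 140 at ZT23, and those of mt-Atp8 912 and 1643 against 2009 and 4229. In both genes the ZT23 libraries lay above those of ZT10, and ILC3 ZT23 replicate 2 was the highest. Both ZT23 libraries lay above both ZT10 libraries in 63 of 102 members, 55 of the 89 nuclear and 8 of the 13 mitochondrial genes, and below them in 0. Over all genes 18.4% lay above and 22.3% below. Among those that overlapped was mt-Co1, with 12581 and 19795 CPM at ZT10 and 18618 and 31536 at ZT23. Without ILC3 ZT23 replicate 2, 1 member had an unadjusted p under 0.05 (all genes 1.58%), 93 of 102 stayed positive and the median was 0.32. Without ILC3 ZT10 replicate 1, 99 members were positive and the median was 0.52 (all genes 0.07). The share with an unadjusted p under 0.05 then also fell, both among members and among all genes.

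Other genes shorter than 1000 bases also had a positive median in the ILC3 comparison of ZT23 with ZT10. Of the 89 nuclear members tested 59 were under 1000 bases, with a median log2 fold change of 0.77, and the 30 longer ones had 0.59. Among 1414 other genes under 1000 bases the median was 0.38 and 73.8% were positive, and among 13823 longer other genes it was -0.04 and 46.5%. Epithelial genes summed to 862 and 4916 CPM in the ILC3 ZT23 libraries and 478 and 333 at ZT10. The part of gene length and of epithelial RNA in these values was not tested.

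In ILC2 the same comparison gave 1 member at an unadjusted p under 0.05 (0.980%, all genes 2.90%) and a median log2 fold change of 0.16, with all 13 mitochondrial genes positive (median 0.41, range 0.27 to 0.49). Single libraries turned the median over members, to -0.18 without ILC2 ZT23 replicate 1 (11 of 13 mitochondrial genes positive) and to -0.05 without ILC2 ZT10 replicate 1 (12 of 13). It rose to 0.51 without ILC2 ZT10 replicate 2 and to 0.44 without ILC2 ZT23 replicate 2. Scaled by library size alone it was 0.03.

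Between ZT16 and ZT4 all 13 mitochondrial genes were negative in both cell types, with a median of -0.21 in ILC2, which has 1 library at ZT16, and -0.45 in ILC3. In ILC2 the common sign was lost without ZT4 replicate 2, where 7 of 13 were positive and the median was 0.02, and without ZT4 replicate 1 the median was -0.39. In ILC3 all 13 stayed negative without each library in turn, with a median of -0.27 without ZT16 replicate 2. None passed, and the mitochondrial share overlapped between these times in ILC3 (4.37% and 6.11% at ZT4, 4.56% and 4.05% at ZT16). Since the 13 genes share their libraries, and all but mt-Nd6 a strand, their signs are not independent observations.

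Members also moved together between libraries of the same group. Replicate 2 minus replicate 1 in log2 CPM had a median near 0 over all genes (0.00 to 0.05) in the 7 groups with 2 libraries. For nuclear members the median was 0.50 in ILC2 ZT10, where 82 of 89 were positive, 0.55 in ILC3 ZT10 (87 of 89) and 0.74 in ILC3 ZT23 (84 of 89). It was -0.62 in ILC2 ZT23, with 5 of 89 positive. In ILC2 ZT4, ILC3 ZT4 and ILC3 ZT16 it was 0.16, -0.04 and 0.03.

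The mitochondrial genes shifted with the nuclear ones in some groups and apart from them in others. Their median was 0.33 in ILC2 ZT10, 0.65 in ILC3 ZT10 and 0.85 in ILC3 ZT23, with 13 of 13 positive in each, and -0.21 in ILC2 ZT23 with 1 of 13 positive. In ILC2 ZT4 they had 0.42, in ILC3 ZT4 0.11, and in ILC3 ZT16 -0.18. Nuclear members under 1000 bases shifted by -0.79 in ILC2 ZT23 and 0.62 in ILC2 ZT10, and longer ones by -0.25 and 0.27. In ILC3 the short and the longer members shifted alike, by 0.72 and 0.80 in ZT23 and by 0.55 and 0.52 in ZT10. Other genes under 1000 bases had medians of -0.17 in ILC2 ZT23, 0.30 in ILC2 ZT10, 0.19 in ILC3 ZT23 and 0.33 in ILC3 ZT10. The share of counts on such other short genes was 6.49% and 5.71% in the ILC2 ZT23 libraries and 5.55% and 7.41% in those of ILC2 ZT10. Within groups the SD of log2 CPM of single nuclear members had a median of 0.39 (quartiles 0.33 and 0.49). The median was 0.33 for mitochondrial members (0.29 and 0.36) and 0.45 over all genes (0.29 and 0.91). Members were not compared with genes of like level.

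**Figure D5:**
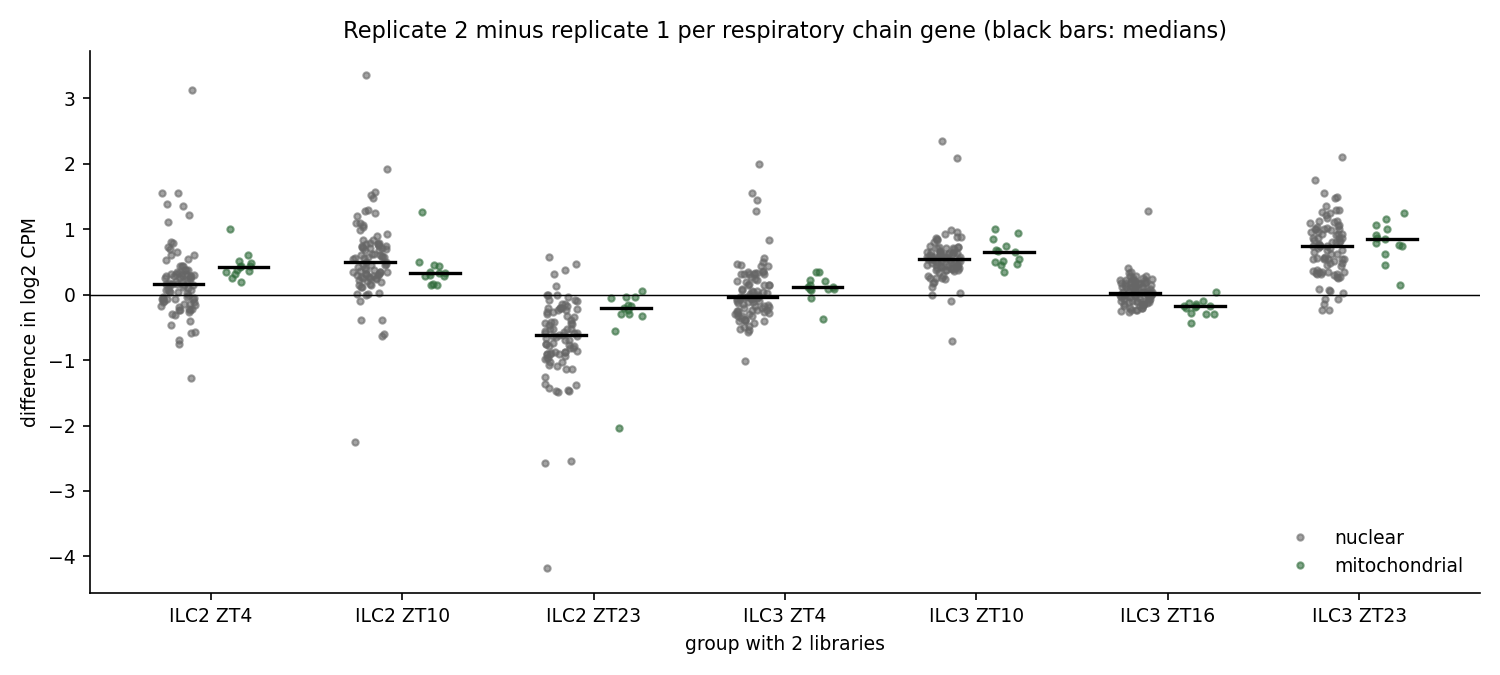
Difference in log2 CPM between replicate 2 and replicate 1 for each of 89 nuclear (grey) and 13 mitochondrial (green) members in the 7 groups with 2 libraries, with medians as black bars. The nuclear median lies at 0.74 in ILC3 ZT23 and at -0.62 in ILC2 ZT23, and near 0 in ILC3 ZT4 and ILC3 ZT16.

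In ILC3 ZT23 replicate 2 the members did not rise alike over their partner library. Ndufaf6, an assembly factor, went from 3.53 to 15.7 CPM, Atp5g1 from 21.8 to 73.9 and Ndufab1 from 23.7 to 66.9. Ndufv3 went the other way, from 73.3 to 61.9 CPM, as did Atp5k, from 20.8 to 17.7. Ndufa10 was nearly level at 117 and 122 CPM.

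Other mitochondrial genes gave the setting of these results, counted in the same test of ILC3 against ILC2. Of 16 TCA cycle genes 2 rose in ILC3 and 0 fell (12.5% passed, all genes 27.1%), or 2 and 2 without ILC3 ZT23 replicate 2 (all genes 25.5%). Mdh2, which makes oxaloacetate from malate, went from 269 ± 32.7 CPM (SD, n = 7) to 753 ± 235 (SD, n = 8), a log2 fold change of 1.48 ± 0.19 (adjusted p = 0.000128 in edgeR). Fh1, fumarase, the step before Mdh2, changed by 0.67 ± 0.17 (adjusted p = 0.0135). The Mdh2 call held in all 21 other settings, and that of Fh1 in 20.

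Of 45 assembly factors tested, 4 rose, Ndufaf7 among them, and 1 fell (11.1%, all genes 27.1%), or 1 and 1 without ILC3 ZT23 replicate 2. Cox10, which makes haem O for complex IV, fell by 0.52 ± 0.13 (adjusted p = 0.0129 in edgeR), and Cox15, the next enzyme of that path, rose by 0.51 ± 0.16 (adjusted p = 0.0356), a call lost in 12 of 21 other settings. Of 10 regulators of mitochondrial biogenesis 1 rose (10.0%), Esrra, the ERR alpha receptor, with 26.5 ± 4.61 CPM in ILC2 and 46.0 ± 19.8 in ILC3 and a log2 fold change of 0.73 ± 0.21 (adjusted p = 0.0232), lost in 6 of 21 settings.

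Of 22 genes for mitochondrial transcription, replication and RNA handling 2 fell and 0 rose (9.09%, all genes 27.1%, 12% lower in ILC3). Polg, the mitochondrial DNA polymerase, fell by 0.54 ± 0.12 (adjusted p = 0.00646 in edgeR), and Fastk, a kinase family protein linked to mt-Nd6 message, fell by 0.47 ± 0.14 (adjusted p = 0.0292), a call lost in 8 of 21 other settings. Polg and Fastk, like Cox10 and Gpx4, did not pass when scaled by library size alone. Of 77 mitochondrial ribosomal protein genes 0 passed in edgeR and 6 had an unadjusted p under 0.05 (all genes 38.3%).

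Of 25 import genes 1 rose and 1 fell (2 of 25, all genes 27.1%). Timm23, the channel of the inner membrane, changed by 0.65 ± 0.17 (adjusted p = 0.0144 in edgeR) and Timm29 by -0.61 ± 0.15 (adjusted p = 0.00848). Of 21 carriers and antioxidants 3 rose and 1 fell (19.0%), or 2 and 1 without ILC3 ZT23 replicate 2. Gpd2, which passes electrons from glycerol phosphate into the chain, rose by 0.69 ± 0.15 (adjusted p = 0.00407), held in all 21 other settings, and Gpx4, a lipid peroxidase, fell by 0.48 ± 0.15 (adjusted p = 0.0322), lost in 7 of them. In the tests over time 0 genes of these lists passed in edgeR. In the ILC3 comparison of ZT23 with ZT10, 15 of the 77 mitochondrial ribosomal protein genes had an unadjusted p under 0.05 (19.5%, all genes 8.17%), with a median log2 fold change of 0.56. Without ILC3 ZT23 replicate 2 it was 0 of 77 (all genes 1.58%) with a median of 0.22, and 66 were positive.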

How the data were processed

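Raw read counts per gene, 1 file for each of 15 libraries, were deposited by the authors under Entrez identifiers with gene lengths. Counting used featureCounts on mm10, per the submitters' processing notes; the version, aligner, strand setting and handling of reads with several matches are not given in the sources used here. Identifiers were named through the RefSeq table of GRCm38.p6 (22718 of 22797). Members, lists and tests were chosen with earlier results of these data known.

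Genes were kept by filterByExpr (minimum count 10), scaled by TMM and tested by the quasi-likelihood F-test of edgeR 4.0.16 (R 4.3.3) on 8 group means, with Benjamini-Hochberg adjustment at 0.05. The fit pools its spread, since ILC2 ZT16 has 1 library. CPM values use TMM. Alternatives used DESeq2 1.42.0, limma-voom 3.58.1, other scalings and filters, a replicate block and each library left out. The procedure was tested on simulated data. Libraries of a group differed by a chi-square per degree of freedom of 22.0 to 229, so each counted as its own sample. Genes were named if they passed a test, were mitochondrial, led their complex by level or by p for cell type, or belonged to an isoform pair, and up to 4 were named of each other list by p for cell type.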

Additional observations from a re-analysis of the deposited data

Results flagged for a closer look

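In a group of 7 ILC2 or 8 ILC3 libraries, a value was singled out when its gap to the nearest other library was larger than Dixon's 95% limit allows for its cell type, which chance does in about 1 in 20 checks. Of 102 checks 42 were singled out, 38 of them in ILC3 ZT23 replicate 2. That library shares its RNA between all its genes, so these are not 38 separate observations. It had 11.1% of counts in the mitochondrial set (other ILC3 libraries 3.92% to 6.33%) and 1.82% in the nuclear set (0.787% to 1.09%).

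Among mitochondrial genes it had 6558 CPM of mt-Nd1, 3803 of mt-Nd2, 1535 of mt-Nd3, 1447 of mt-Nd4l and 6339 of mt-Nd4 for complex I, and 9466 of mt-Cytb for complex III. For complex IV it had 31536 CPM of mt-Co1, 10226 of mt-Co2 and 16441 of mt-Co3, and for complex V 4229 of mt-Atp8 and 10079 of mt-Atp6. Not singled out were mt-Nd5 and mt-Nd6.

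Of nuclear complex I it had 48.5 CPM of Ndufa8, 229 of Ndufb8, 154 of Ndufb10 and 66.9 of Ndufab1. Of complex II it had 243 CPM of Sdhb, 222 of Sdhc and 32.1 of Sdhd. Of complex III it had 140 CPM of Uqcr10, 550 of Uqcrc1, 159 of Uqcrq and 52.1 of Uqcrb, and of cytochrome c 123 of Cycs. Of complex IV it had 656 CPM of Cox4i1, 408 of Cox8a, 318 of Cox6a1, 51.8 of Cox7a2, 275 of Ndufa4, 0.374 of Ndufa4l2, 195 of Cox6b1, 4.99 of Cox7a1 and 210 of Cox7b. Of complex V it had 1854 CPM of Atp5b, 2002 of Atp5a1, 562 of Atp5g3 and 73.9 of Atp5g1.

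The other 4 were single genes in other libraries. Cox6b2 had 1.46 CPM in ILC2 ZT16 and 4.16 in ILC3 ZT10 replicate 2. Cox7a2 had 20.3 CPM in ILC2 ZT10 replicate 2, and Cox7a2l had 478 in ILC2 ZT4 replicate 1.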

How the results depend on the processing

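The count of members that passed between ILC3 and ILC2 was 6, and 14 with library size as the only scaling. Leaving out each library in turn gave 5 to 12, the highest without ILC3 ZT23 replicate 1. Between ILC3 and ILC2 Sdhd, Cox6c and Cox8a also passed in DESeq2, where 32% of all genes passed. DESeq2 called 2 members over the times in ILC3 and 1 between ZT23 and ZT10 in ILC3, where edgeR called 0. The labels do not say whether replicate numbers pair libraries. Correlations over genes between the replicate differences of 2 groups lay between 0.00 and 0.08 in ILC2. In ILC3 the correlation was 0.42 for ZT4 with ZT23, and between -0.16 and 0.13 for the other pairs of groups. These values do not settle whether libraries are paired. With the replicate number as a block within each cell type, 2 members passed (Atp5g2 and Cox6b2), while the adjusted p in edgeR was 0.137 for Uqcr10, 0.141 for Ndufaf7, 0.108 for mt-Nd6 and 0.428 for Ndufa8, and 2242 of all genes against 4157 without it. With that replicate block the log2 fold changes of Atp5g3 and Cycs, which passed in no setting, turned to -0.08 and -0.05; the cause was not tested. The mean log2 ratio of mitochondrial to nuclear counts fell to 2.32 in ILC2 and 2.08 in ILC3 without mt-Nd6 and the overlapping pairs, which removes counts from the mitochondrial sum. As a difference of median log2 CPM it was 5.79 and 5.66, since a median per gene does not grow with the 93 nuclear genes. ZT16 minus ZT4 in ILC2 has no value without the ILC2 ZT16 library. No other setting moved a count of called members or a mean of the sets' values beyond 1.5 times or 1 SD. Depth limits Cox6b2, Cox4i2, Ndufa4l2 and Cox7a1, which had 322 counts or fewer in all.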
